A study of Mus musculus with 16 samples.

Results

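Expression of 9 granule and progenitor genes of early granulocyte and monocyte development was followed in mouse bone marrow progenitors that lacked or carried Tet2, at low and at ambient oxygen. The 9 genes, Elane, Prtn3, Prss57, Ctsc, Srgn, Cebpe, Ms4a3, Plac8 and Nkg7, were chosen by symbol through their Ensembl identifiers, and all 9 were found among the 6288 genes of the table used here. The study sequenced bulk RNA of CD45-positive marrow cells after depletion of lineage-marked cells and selection on Sca1, to enrich the LSK fraction in which stem cells and multipotent progenitors lie. Its 16 libraries form 4 groups of 4 biological replicates: Tet2-deficient (Tet2-/-) cells in physioxia, wild-type (WT) C57Bl/6J cells in physioxia, Tet2-deficient cells in air and WT cells in air. Marrow of every group was collected and enriched in a chamber at 3% oxygen (physioxia), and the air groups then stood for 6 hours in ambient air, about 21% oxygen, before RNA extraction. Donors were 3 to 4 months old and of both sexes. Enriched cells were divided between the chamber and air, but the labels do not say which replicates share cells, which part of Tet2 was deleted, or whether mice were pooled, and p-values measure only the spread between these samples.

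Azurophil granules are the earliest granules of the neutrophil line and are filled in promyelocytes, before the specific granules of later stages appear. Their serine proteases are made as inactive precursors, trimmed to the active form by cathepsin C and held in the granule by the proteoglycan serglycin. In mouse and human marrow these genes are switched on as progenitors commit to the granulocyte and monocyte lines, under factors of the C/EBP, PU.1 and MYB families. Loss of Tet2, which oxidises methylated cytosine in DNA, is known for enlarging the LSK compartment and for biasing its output to the myeloid side in mice.

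The 3 serine protease genes of the list lie in 1 stretch of chromosome 10 (GRCm38, GENCODE M21). Prss57 spans chr10:79781474-79790961 on the minus strand, Prtn3 spans chr10:79874476-79883174 on the plus strand and Elane spans chr10:79886247-79888215 on the plus strand. A gap of 83.5 kb separates Prss57 from Prtn3, and a gap of 3.07 kb separates Prtn3 from Elane. The other members lie elsewhere: Srgn at chr10:62493833-62527451, Nkg7 at chr7:43437073-43438249, Ctsc at chr7:88278085-88310888, Plac8 at chr5:100553725-100572245, Cebpe at chr14:54710360-54712174 and Ms4a3 at chr19:11629496-11640851. All 9 are protein-coding.

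The sequences just upstream of the RefSeq start are shown for Elane and Prtn3, the neighbours on chromosome 10, and for Nkg7, the gene whose levels followed those of Elane most closely. Each window covers 250 bases up to the start, on the plus strand of GRCm38.p6 as given by RefSeq, at chr10:79886062-79886311 for Elane, chr10:79879417-79879666 for Prtn3 and chr7:43436888-43437137 for Nkg7. The RefSeq starts used lie inside the GENCODE spans given above. The Prtn3 window thus lies wholly within its span, and the Elane and Nkg7 windows overlap the beginning of theirs. Capitals mark matches to GAGGAAGT, letters bound by PU.1 and other ETS factors, and to CAACNG, the letters of MYB sites, searched on both strands.
Elane: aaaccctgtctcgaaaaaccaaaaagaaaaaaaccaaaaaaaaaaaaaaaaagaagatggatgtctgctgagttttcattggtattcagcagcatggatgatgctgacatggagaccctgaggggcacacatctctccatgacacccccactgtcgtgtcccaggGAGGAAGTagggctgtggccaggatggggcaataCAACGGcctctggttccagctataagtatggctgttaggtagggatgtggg
Prtn3: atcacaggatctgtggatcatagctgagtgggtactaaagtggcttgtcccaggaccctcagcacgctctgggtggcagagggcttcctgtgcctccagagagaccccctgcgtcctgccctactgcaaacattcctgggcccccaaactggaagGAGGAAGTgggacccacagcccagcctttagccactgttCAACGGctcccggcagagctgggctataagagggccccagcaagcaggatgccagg
Nkg7: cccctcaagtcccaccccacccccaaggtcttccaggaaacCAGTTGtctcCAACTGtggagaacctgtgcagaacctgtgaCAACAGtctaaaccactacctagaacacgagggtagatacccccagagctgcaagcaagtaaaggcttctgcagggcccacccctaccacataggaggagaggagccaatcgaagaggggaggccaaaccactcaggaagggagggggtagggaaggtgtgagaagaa

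The Elane and Prtn3 windows carry the same 3 elements in the same order. GAGGAAGT lies at −85 to −78 in Elane and at −95 to −88 in Prtn3, counted back from −1 at the base before the start. CAACGG lies at −51 to −46 in Elane and at −56 to −51 in Prtn3. The letters TATAA, the core of a TATA box, lie at −31 to −27 in Elane and at −32 to −28 in Prtn3, and are left in lower case. Of the 32851 mouse promoter windows of this length in the RefSeq table, 2.44% hold GAGGAAGT, 29.3% hold CAACNG, 22.8% hold TATAA, and 0.152% hold all 3, each searched on both strands. The Nkg7 window holds no GAGGAAGT and 3 matches to CAACNG. Windows were given for 7 of the 9 members, 9 windows in all, since Plac8 and Srgn have 2 each. A member is counted when any of its windows matches, while the shares of all windows count single windows. Of the 7 members, 3 hold GAGGAAGT (Elane, Prtn3 and, on the opposite strand, Ctsc) and 5 hold CAACNG. The C/EBP letters TTNNGNAA, which 36.8% of all windows hold, are found in 3 members: Ms4a3, Plac8 and Srgn. A match to letters is not a measured binding site, and nothing in these libraries reports on factor binding. Cebpe and Prss57 had no window.

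The table used here held 7770456 to 15683867 reads per library, and the 9 genes together took a large part of them. Their share of the reads averaged 3.58% ± 0.54 in Tet2-deficient and 4.43% ± 0.50 in WT physioxia libraries, and 3.56% ± 0.41 in Tet2-deficient and 4.47% ± 0.32 in WT air libraries (SD, n = 4 per group, as for all means below). Elane alone took 1.86% and 2.21% in Tet2-deficient and WT physioxia libraries, and 1.85% and 2.41% in Tet2-deficient and WT air libraries. Per kilobase of exon, with all annotated exons of a gene joined, the mean normalized count over the 16 libraries was 245267 for Elane. It was 35790 for Prtn3, 35113 for Plac8, 28137 for Nkg7, 19435 for Srgn and 12999 for Ms4a3. It was 3163 for Cebpe, 1847 for Prss57 and 677 for Ctsc. Elane stood above Prtn3 in each of the 16 libraries with ranges that did not meet, as did Ms4a3 above Cebpe and Prss57 above Ctsc. Prtn3 and Plac8, neighbours in this order, did not differ beyond their spread, with Prtn3 higher in 11 of 16 libraries. The order rests on these joined exon lengths, and lengths of single transcripts were not used.

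In physioxia all 9 genes were lower in Tet2-deficient than in WT cells, with log2 differences between −0.40 and −0.89, although Elane alone changed sign when the libraries were quantile normalized. Here and below a gene is called lower or higher when its limma p, adjusted by Benjamini-Hochberg over the 6110 genes tested, is under 0.05. In air 5 of the 9 were lower (Elane, Prss57, Ctsc, Srgn and Nkg7, Elane again with the opposite sign under quantile normalization), and Prtn3, Ms4a3, Cebpe and Plac8 did not pass. Of all genes tested, 33.6% were called lower and 35.9% higher in physioxia, 69.4% in either direction, and 37.4% were called lower and 42.1% higher in air, 79.5% in either direction. The table is itself rich in such genes: for 98.3% of its genes the smallest unadjusted p of DESeq2 over 4 pairwise comparisons was under 0.05. Under quantile normalization 4 of the 9 genes were called in physioxia (Prss57, Srgn, Cebpe and Plac8), beside 63.0% of all genes in either direction, and 2 in air (Prss57 and Ctsc), beside 70.2%. The median log2 difference of the 9 genes was −0.62 in physioxia, beside 0.06 for all genes tested, and −0.42 in air, beside 0.24. In bulk RNA, fewer granulocyte-monocyte progenitors among the cells and less of each transcript per cell cannot be told apart.

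**Figure D1:**
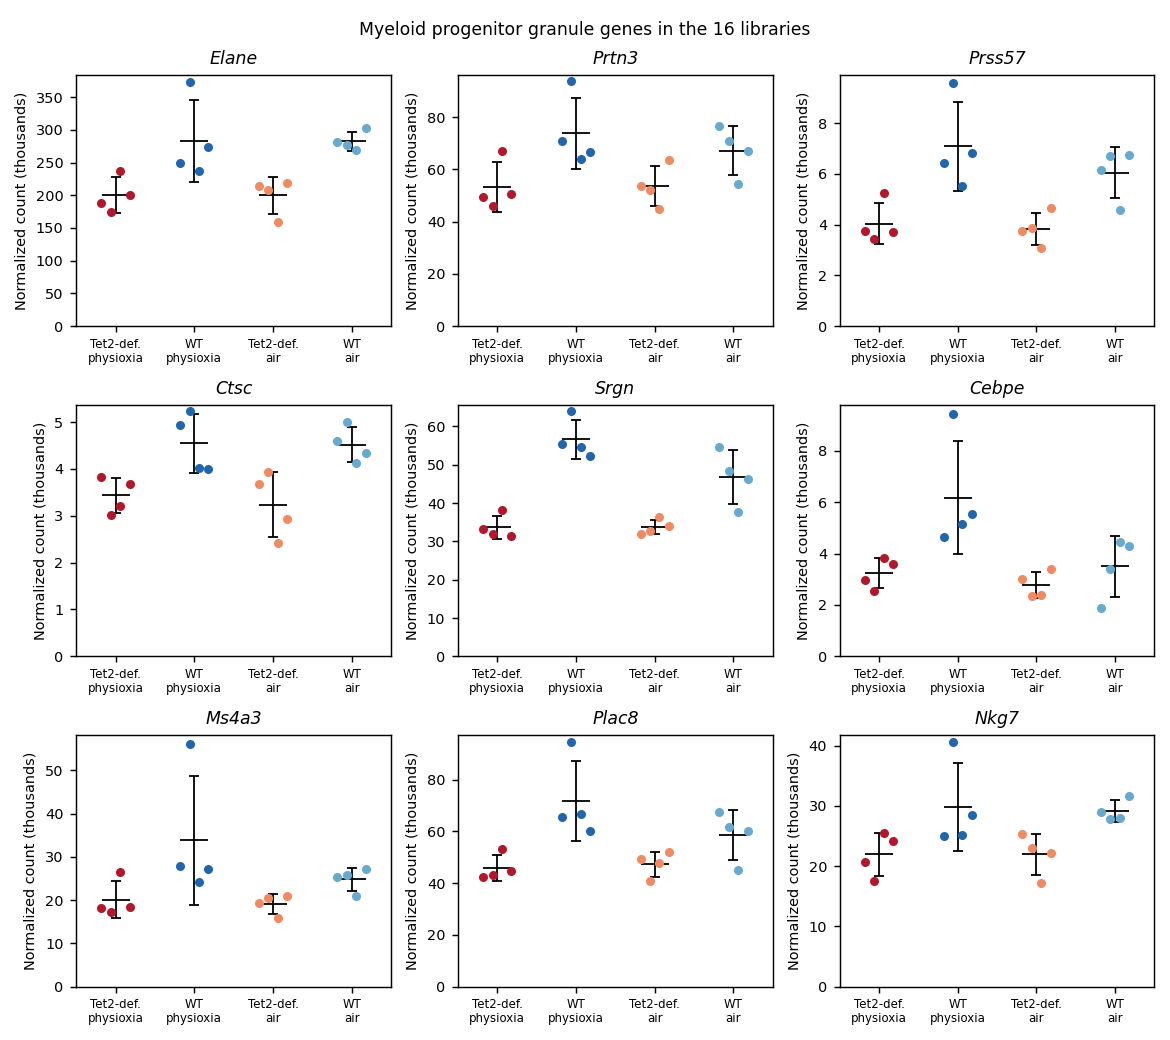
Normalized counts of each gene in the 16 libraries, a point per library, with bars for the mean and SD of the 4 replicates in each group. The Tet2-deficient means lie below the WT means of the same oxygen condition for all 9 genes, as deposited (under quantile normalization the Elane difference has the opposite sign), and 1 WT physioxia library is the highest for every gene.

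Elane encodes neutrophil elastase, the most abundant transcript of the list. Its normalized counts, in replicate order, were 188096, 173770, 237748 and 200105 in Tet2-deficient physioxia libraries, against 248756, 373689, 236451 and 274015 in WT physioxia libraries. In air they were 213840, 208093, 158688 and 218562 in Tet2-deficient libraries, against 281023, 276522, 269763 and 302364 in WT libraries. The genotypes were apart in air, and in physioxia they met, since the highest Tet2-deficient library lay just above the lowest WT library. The means were 199930 ± 27414 in Tet2-deficient and 283228 ± 62302 in WT physioxia libraries, a log2 difference of −0.49 ± 0.16 (SE, as for all log2 differences; limma adjusted p = 0.0126). In air they were 199796 ± 27738 in Tet2-deficient and 282418 ± 14079 in WT libraries, a log2 difference of −0.51 ± 0.16 (limma adjusted p = 0.0102). Under quantile normalization the Elane differences were 0.14 in physioxia (limma adjusted p = 0.396) and 0.10 in air (adjusted p = 0.510). Neither passed the threshold, and quantile normalization was the only 1 of 29 alternatives in which the sign reversed, in either oxygen condition. That method gives genes of equal rank the same value in every library, and Elane held rank 1, 3 or 4 in each.

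Prtn3, the gene of proteinase 3, an elastase-like protease and an autoantigen of human vasculitis, had 49349, 45836, 67184 and 50611 normalized counts in Tet2-deficient physioxia libraries, against 70988, 93859, 64136 and 66558 in WT physioxia libraries. In air it had 53781, 52032, 44916 and 63526 in Tet2-deficient libraries, against 76497, 71037, 54547 and 66955 in WT libraries. The groups overlapped in both conditions, through Tet2-deficient physioxia replicate 3 and WT air replicate 3. The log2 difference was −0.47 ± 0.16 in physioxia (limma adjusted p = 0.0156), and in air it was −0.33 ± 0.16 and did not pass (adjusted p = 0.0657). In air Prtn3 passed in 4 of 29 alternatives and not in the other 25. These were DESeq2 (adjusted p = 0.0326) and limma without WT air replicate 3 (0.0317), Tet2-deficient air replicate 4 (0.0406) or WT physioxia replicate 2 (0.0374).

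Prss57, a further serine protease of azurophil granules, showed wider differences. It had 3746, 3438, 5228 and 3721 normalized counts in Tet2-deficient physioxia libraries, against 6434, 9587, 5527 and 6806 in WT physioxia libraries, and these did not overlap. In air it had 3742, 3848, 3090 and 4645 in Tet2-deficient libraries, against 6169, 6705, 4593 and 6731 in WT libraries, with the highest Tet2-deficient library just above the lowest WT library. The log2 differences were −0.80 ± 0.18 in physioxia (limma adjusted p = 0.00176) and −0.66 ± 0.18 in air (adjusted p = 0.00589). Prss57 shares 1157 bases with the antisense gene Fstl3, whose counts were only 12.2 to 70.5 per library, and whether the counting used strand is not given in the sources used here.

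Ctsc encodes cathepsin C, the dipeptidyl peptidase that activates these proteases. Its normalized counts were 3820, 3027, 3213 and 3674 in Tet2-deficient physioxia libraries, against 4942, 5229, 4018 and 4008 in WT physioxia libraries. In air they were 3668, 3935, 2410 and 2930 in Tet2-deficient libraries, against 4597, 5001, 4122 and 4340 in WT libraries. The genotypes did not overlap in either condition. The log2 differences were −0.40 ± 0.15 in physioxia (limma adjusted p = 0.0233) and −0.50 ± 0.15 in air (adjusted p = 0.00754). In physioxia the call was lost without WT replicate 1 or 2 or without Tet2-deficient replicate 2 or 3, with an adjusted p of at most 0.0698.

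Srgn encodes serglycin, the proteoglycan core that retains elastase in the granule, and it had the smallest p of the 9 genes in both conditions. It had 33156, 31912, 38135 and 31341 normalized counts in Tet2-deficient physioxia libraries, against 55354, 63963, 54718 and 52390 in WT physioxia libraries. In air it had 31985, 32815, 36287 and 34089 in Tet2-deficient libraries, against 54521, 48383, 37555 and 46278 in WT libraries. In both conditions every Tet2-deficient library lay below every WT library, by a wide margin in physioxia. The log2 differences were −0.75 ± 0.12 in physioxia (limma adjusted p = 9.5e-05) and −0.46 ± 0.12 in air (adjusted p = 0.0037). In air the Srgn call was lost under quantile normalization, at −0.19 ± 0.09 (adjusted p = 0.0768), and without WT air libraries 1 and 2, at −0.30 ± 0.13 (adjusted p = 0.0666). When the annotated genes outside the table were added as unchanged, Srgn was called in both conditions, as none of the other 8 genes was. In that fit 40.6% of all genes tested were called in physioxia and 39.9% in air.

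Cebpe encodes C/EBP epsilon, the transcription factor that granulocyte precursors need to pass the promyelocyte stage and to make specific granules. Its normalized counts were 2982, 2534, 3817 and 3588 in Tet2-deficient physioxia libraries, against 4626, 9415, 5134 and 5529 in WT physioxia libraries, and these did not overlap. In air they were 3010, 2355, 2399 and 3385 in Tet2-deficient libraries, against 1885, 3390, 4442 and 4303 in WT libraries, where WT replicate 1 lay below every Tet2-deficient library. The log2 difference was −0.89 ± 0.26 in physioxia (limma adjusted p = 0.00736), and in air it was −0.27 ± 0.26 (95% interval −0.82 to 0.28) and did not pass (adjusted p = 0.326). Without WT air replicate 1 the difference in air was −0.54 ± 0.22 (adjusted p = 0.0417). The difference between these genotype differences was −0.62 ± 0.37 and did not pass (adjusted p = 0.591), and it was −0.35 without WT air replicate 1 and −0.40 without WT physioxia replicate 2.

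Ms4a3, a membrane protein whose gene marks granulocyte-monocyte progenitors and their offspring in mice, had 18280, 17309, 26495 and 18411 normalized counts in Tet2-deficient physioxia libraries, against 27820, 56209, 24228 and 27151 in WT physioxia libraries. In air it had 19317, 20407, 15895 and 20964 in Tet2-deficient libraries, against 25434, 25728, 20998 and 27189 in WT libraries. The physioxia groups overlapped and the air groups did not, by a narrow margin. The log2 difference was −0.68 ± 0.22 in physioxia (limma adjusted p = 0.0113), and −0.41 ± 0.15 (adjusted p = 0.0218) without WT physioxia replicate 2. In air it was −0.38 ± 0.22 and did not pass (adjusted p = 0.111), but it passed with only the 2 air groups in the fit (adjusted p = 0.0170) and without WT physioxia replicate 2 (adjusted p = 0.0183).

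Plac8 encodes a small cysteine-rich protein of myeloid and other blood cells. It had 42472, 43290, 53386 and 44797 normalized counts in Tet2-deficient physioxia libraries, against 65480, 94615, 66669 and 60021 in WT physioxia libraries, which did not overlap. In air it had 49189, 40642, 47606 and 51897 in Tet2-deficient libraries, against 67557, 61867, 44903 and 60002 in WT libraries, and these overlapped through WT replicate 3. The log2 difference was −0.62 ± 0.15 in physioxia (limma adjusted p = 0.00299), and in air it was −0.30 ± 0.15 and did not pass (adjusted p = 0.0840). In air Plac8 passed in 3 of 29 alternatives and not in the other 26. These were DESeq2 (adjusted p = 0.0389) and limma without WT air replicate 3 (0.0240) or WT physioxia replicate 2 (0.0372).

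Nkg7, a membrane protein of cytotoxic granules known from natural killer (NK) and T cells, had 20729, 17452, 25442 and 24194 normalized counts in Tet2-deficient physioxia libraries, against 25029, 40618, 25099 and 28526 in WT physioxia libraries. In air it had 25285, 23009, 17214 and 22226 in Tet2-deficient libraries, against 29070, 27841, 28055 and 31687 in WT libraries. The groups met in physioxia and were apart in air. The log2 differences were −0.43 ± 0.16 in physioxia (limma adjusted p = 0.0288) and −0.42 ± 0.16 in air (adjusted p = 0.0279). In physioxia the difference was −0.27 ± 0.14 without WT replicate 2 and the call was lost, as it was without Tet2-deficient replicate 1 or 2 or with only the 2 physioxia groups in the fit (adjusted p = 0.0606). In air it was lost without WT replicate 4 or Tet2-deficient replicate 3.

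Groups that did not overlap numbered 5 of the 9 genes in physioxia (Prss57, Ctsc, Srgn, Cebpe and Plac8) and 5 in air (Elane, Ctsc, Srgn, Ms4a3 and Nkg7), all with Tet2-deficient cells lower as deposited. Of all genes tested, 28.0% in physioxia and 35.5% in air were lower in Tet2-deficient cells with no overlap. The test of the genotype difference in physioxia minus that in air passed for 0 of the 9 genes by limma, edgeR or DESeq2, and for 0.0% of all genes by limma, where 8.94% had an unadjusted p under 0.05. The 9 calls in physioxia and the 5 in air thus do not show that the genotype difference depended on oxygen. For Prtn3, Ms4a3, Cebpe and Plac8 which did not pass in air, the upper end of the 95% interval there lay between 0.01 and 0.28.

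**Figure D2:**
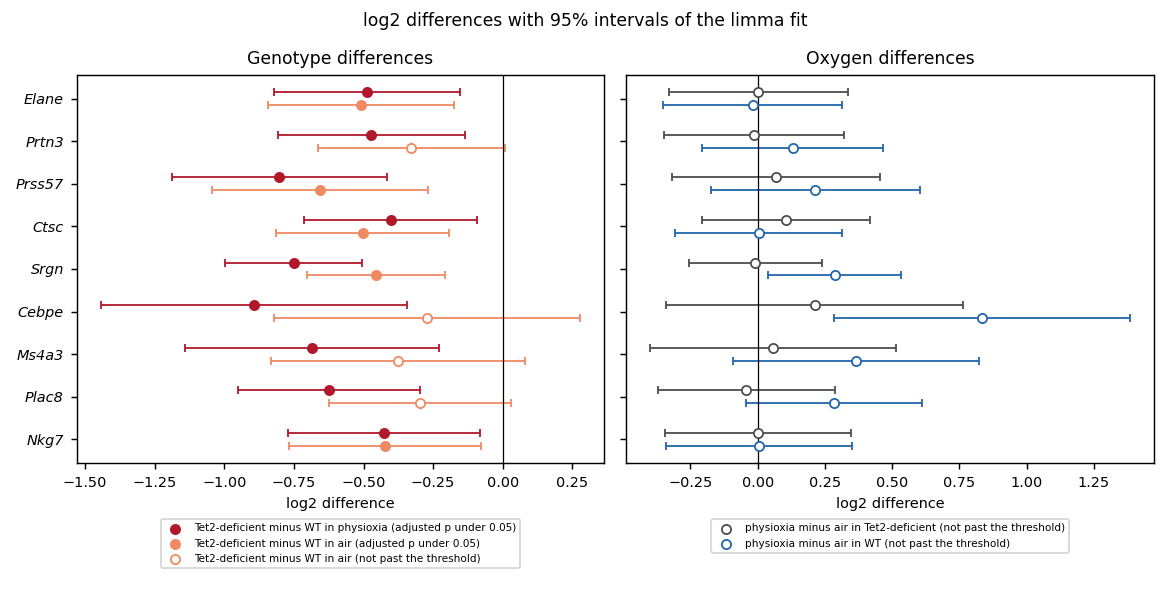
log2 differences of the 9 genes with 95% intervals from the limma fit, Tet2-deficient minus WT on the left and physioxia minus air on the right. Filled points passed the test. All 9 genotype differences in physioxia and 5 in air are filled and below 0 (Elane lies above 0 under quantile normalization), and no oxygen difference is filled. The fit shown holds no replicate block, and with the block within each genotype the oxygen difference of Cebpe in WT cells passed.

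In the fit without the replicate block none of the 9 genes passed the limma test of physioxia against air, in either genotype. With the block within each genotype Cebpe passed in WT cells, as given below. In Tet2-deficient cells 0 of the 9 genes were called, beside 0.0% of all genes, and their log2 differences between physioxia and air lay between −0.04 and 0.21. All had a limma adjusted p of 1.0, edgeR and DESeq2 also called 0 of the 9, and 4.58% of all genes had an unadjusted p under 0.05. For Elane the difference was 0.00 (95% interval −0.33 to 0.34) and for Srgn it was −0.01 (−0.26 to 0.24). Cebpe, the widest, had 0.21 (−0.34 to 0.76). These values come from a fit without pairs, and no pairing of Tet2-deficient libraries other than by number was fitted.

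In WT cells 0 of the 9 genes were called by limma, edgeR or DESeq2, beside 5.76% of all genes by limma (4.91% higher in physioxia, and 7.56% in either direction with the replicate block within each genotype) and 19.5% at an unadjusted p under 0.05. The 9 differences had a median of 0.21, beside 0.01 for all genes. Cebpe was nearest to the threshold, at 6176 ± 2190 normalized counts in physioxia and 3505 ± 1177 in air, a log2 difference of 0.83 ± 0.26 (95% interval 0.28 to 1.39, limma adjusted p = 0.0743). Each WT physioxia library lay above each WT air library for Cebpe, as it did for 7.82% of all genes. The WT libraries deviated in pairs by replicate number, and with the number as a replicate block within each genotype the Cebpe difference passed (limma adjusted p = 0.0367). By number it was 1.29, 1.47, 0.21 and 0.36, so the size came mainly from numbers 1 and 2. Without WT air replicate 1 it was 0.56, and without WT physioxia replicate 2 it was 0.61.

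Srgn was higher in physioxia within each WT number, by log2 differences of 0.02, 0.40, 0.54 and 0.18, but its fitted difference of 0.29 ± 0.12 did not pass (limma adjusted p = 0.181). Ms4a3 stood at 0.37 ± 0.22 and Plac8 at 0.28 ± 0.15, neither past the threshold (adjusted p = 0.370 and 0.329). Without WT physioxia replicate 2 these differences were 0.09 for Ms4a3 and 0.14 for Plac8, and without WT air replicate 3 that of Plac8 was 0.16. Elane, Ctsc and Nkg7 had WT differences of −0.02, 0.00 and 0.00, with 95% intervals of −0.35 to 0.31, −0.31 to 0.31 and −0.34 to 0.35. A change of Elane by more than 0.35 on the log2 scale between the oxygen conditions in WT cells thus lies outside its interval.

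The libraries differed from each other in a way that ran through all 9 genes. Centred on each gene's mean over the 16 libraries, the mean of the 9 log2 levels was highest in WT physioxia replicate 2, at 0.82, and this library was the highest of the 16 for each of the 9 genes. Its summed normalized count over the table was 14464900, against 10560190 to 12222705 in the other 15. The lowest mean, −0.50, belonged to Tet2-deficient air replicate 3, which was the lowest of the 16 for 6 of the 9 genes. Without WT physioxia replicate 2, 7 of the 9 genes were called lower in physioxia (Ctsc and Nkg7 were lost), beside 70.6% of all genes called in either direction in that fit, and 8 in air, beside 86.5% of all genes, where the differences were unchanged, their SEs were smaller and Prtn3, Ms4a3 and Plac8 passed.

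The Tet2-deficient library that stood lowest on the 9 genes in each oxygen condition stood highest on erythroid genes there. The mean log2 level of 23 erythroid progenitor genes was 13.06 in Tet2-deficient air replicate 3 and 12.85 in Tet2-deficient physioxia replicate 2, against 11.07 to 11.91 in the other Tet2-deficient libraries and 9.28 to 10.33 in WT libraries. Among WT libraries the order was another: WT physioxia replicate 2, the highest on all 9 genes, also had the highest erythroid level, 10.33. In its group, Tet2-deficient physioxia replicate 2 was the lowest for 7 of the 9 genes. Without it 6 of the 9 genes were called lower in physioxia (Prtn3, Ctsc and Nkg7 were lost). Of all genes 62.9% were then called in either direction, beside 69.4% with all libraries. Without Tet2-deficient air replicate 3 the calls in air were 4 (Nkg7 was lost). Of all genes 66.3% were then called, beside 79.5% with all libraries. The part of these libraries' erythroid levels in the results on the 9 genes was not tested.

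**Figure D3:**
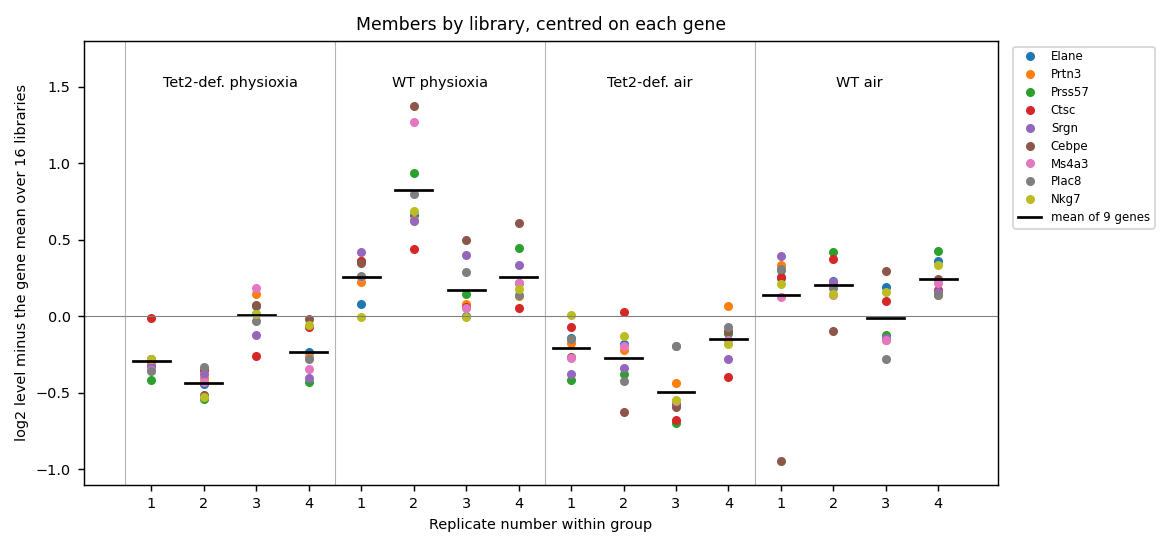
log2 level of each of the 9 genes in each library minus the gene's mean over the 16 libraries, with a bar for the mean of the 9. WT physioxia replicate 2 has the highest bar (0.82) and Tet2-deficient air replicate 3 the lowest (−0.50), and Cebpe in WT air replicate 1 lies far below the other genes of its library.

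Within a library Elane and Nkg7 kept a nearly fixed proportion. The ratio of Elane to Nkg7 counts was 9.16 ± 0.70 in Tet2-deficient and 9.54 ± 0.31 in WT physioxia libraries, and 9.14 ± 0.57 in Tet2-deficient and 9.69 ± 0.17 in WT air libraries. Over the 16 libraries it ranged only between 8.27 and 9.96, while Elane itself ranged between 158688 and 373689. Elane to Prtn3 was 3.77 ± 0.17 in Tet2-deficient and 3.82 ± 0.28 in WT physioxia libraries, and 3.74 ± 0.29 in Tet2-deficient and 4.26 ± 0.58 in WT air libraries. Its range over the 16 libraries was 3.44 to 4.95. These ratios do not depend on how libraries were scaled to each other by a single factor.

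The serine protease genes Prtn3 and Prss57, of the same stretch of chromosome 10, did not keep 1 proportion across genotypes. Prtn3 to Prss57 was 13.2 ± 0.31 in Tet2-deficient and 10.6 ± 0.92 in WT physioxia libraries, and 14.0 ± 0.50 in Tet2-deficient and 11.2 ± 1.13 in WT air libraries. The ranges were 12.9 to 13.6 in Tet2-deficient against 9.78 to 11.6 in WT physioxia libraries, and 13.5 to 14.5 in Tet2-deficient against 9.95 to 12.4 in WT air libraries, so that the genotypes did not overlap in either condition. This pair was looked at after the values of its genes were known, and no test was made of it. Elane to Prss57, of the same stretch, was 45.5 to 53.8 in Tet2-deficient and 38.7 to 42.8 in WT physioxia libraries, without overlap. In air the genotypes overlapped for Elane to Prss57, as the Tet2-deficient range lay within the WT range of 41.2 to 58.7. That ratio was not tested either. Elane to Cebpe varied most, with 62.4 ± 5.25 in Tet2-deficient and 47.3 ± 5.96 in WT physioxia libraries, and 72.5 ± 10.9 in Tet2-deficient and 60.7 to 149 in WT air libraries.

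**Figure D4:**
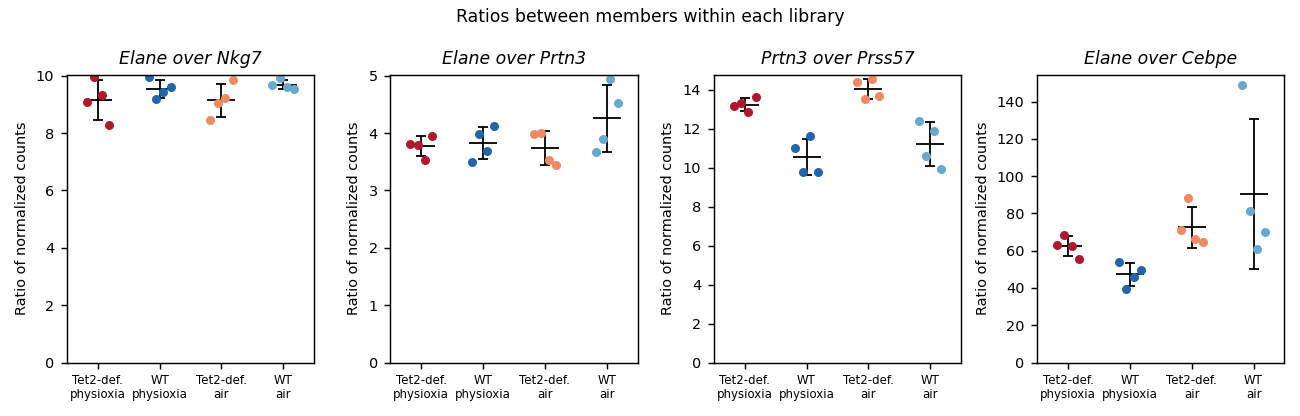
Ratios of normalized counts between pairs of the 9 genes, a point per library with the mean and SD of each group. Elane over Nkg7 stays between 8.27 and 9.96, Prtn3 over Prss57 is higher in each Tet2-deficient library than in each WT library of the same oxygen condition, and Elane over Cebpe spreads between 39.7 and 149.

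Likeness to a gene was measured as the root mean square difference of log2 levels, each centred on its own mean, over the 16 libraries. Of all tested genes Nkg7 was nearest to Elane, at 0.076, and Elane was nearest to Nkg7. Next to Elane came Shcbp1, Igsf6, Gstm4 and Msantd3, at 0.095 to 0.114, and Prtn3 held rank 15 at 0.133. Next to Nkg7 after Elane came Shcbp1, Trappc4, Ralb and Ddost, at 0.113 to 0.121. Srgn had no neighbour as near: Rab9, Gabarap, St8sia4, Eif3k and Plac8 stood at 0.113 to 0.128 from it. The nearest genes to Cebpe, Mcrip1, Cyb5r4, Ap3s1, Tdp2 and Tmem192, stood at 0.301 to 0.315. All 16 libraries enter each value, so differences between genotypes and between libraries are both in it.

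Around the 3 protease genes on chromosome 10 the table held few other genes. Of 24 protein-coding genes annotated within 100 kb of the 3, 6 were in the table, the 3 themselves included. Bsg, the gene of the surface protein basigin, did not pass in physioxia (0.11 ± 0.19, limma adjusted p = 0.610) or in air (0.38 ± 0.19, adjusted p = 0.0739). Fstl3, an inhibitor of activin-type ligands, was lower in Tet2-deficient cells in physioxia (−1.05 ± 0.30, limma adjusted p = 0.00631) and in air (−1.39 ± 0.30, adjusted p = 0.0011), at mean counts of at most 61.9. Fstl3 shares 1157 bases with Prss57, whose counts were far higher. The part of Prss57 reads in the Fstl3 counts was not tested. Arid3a, a DNA-binding protein, had −0.01 ± 0.26 in physioxia (limma adjusted p = 0.966) and was lower in air (−0.75 ± 0.26, adjusted p = 0.0166).

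Other genes of azurophil granules and their assembly moved in both directions. Of 29 such genes listed 17 were in the table, and of the 12 that are not among the 9 genes, 7 were lower and 4 higher in Tet2-deficient cells in physioxia, and 8 lower and 3 higher in air. Their median log2 difference was −0.45 in physioxia and −0.43 in air. Slpi, a leukocyte protease inhibitor that acts on elastase, was lower, at −0.93 ± 0.13 and −0.98 ± 0.13 in physioxia and air, and Ctsz, a lysosomal cathepsin, at −0.66 ± 0.09 and −0.80 ± 0.09. Rab27a, a GTPase of granule release, stood at −0.82 and −0.79, and Cd63, a membrane protein of azurophil granules, at −0.89 and −0.68, all lower by limma. Ap3m1, a subunit of the adaptor that sorts proteins to such granules, was higher, at 0.68 and 0.47. Mpo and Ctsg, the genes of myeloperoxidase and cathepsin G, were not analysed here.

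The list of transcription factors of these lineages, which also holds the erythroid factor Gata1, had no shared direction. Of 14 in the table besides Cebpe, 4 were higher and 4 lower in Tet2-deficient cells in physioxia, and 8 higher and 3 lower in air. Spi1, the gene of PU.1, was lower in both conditions, with a mean of 8925 in Tet2-deficient and 14461 in WT physioxia libraries (−0.70, limma adjusted p = 0.000159) and of 9033 in Tet2-deficient and 14280 in WT air libraries (−0.66, adjusted p = 0.000249). Zeb2, a repressor needed for monocyte fate, was lower, at −0.54 in physioxia and −0.93 in air. Id1, an inhibitor of basic helix-loop-helix factors, was higher, at 2.00 in physioxia and 2.54 in air. Egr2 was higher, at 1.14 and 1.59, as was Gata1 at 0.92 and 1.17.

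Cebpd, Klf5 and Ikzf1 were higher in Tet2-deficient cells in air and did not pass in physioxia. For Cebpd, a C/EBP factor, the log2 difference was 0.09 in physioxia and 2.26 in air, and its WT mean was 888 in physioxia and 205 in air, a difference of 2.00 (limma adjusted p = 0.0190). Klf5 had 0.81 and Ikzf1 0.64 in air. The test of the genotype difference in physioxia minus that in air did not pass for Cebpd (−2.17, limma adjusted p = 0.552), Klf5 (−0.96, adjusted p = 0.552) or Ikzf1 (−0.40, adjusted p = 0.626). With Myb and Klf5, Cebpd was among the 3 of these 14 factors called higher in physioxia than in air in WT cells, in the fit without the replicate block. In that fit Cebpe did not pass, and with the block it did, as given above. Cebpa and Gfi1 were not analysed here.

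Genes of granulocyte-monocyte progenitors outside the 9 were nearly all lower in Tet2-deficient cells. Of 19 in the table, 17 were lower and 0 higher in physioxia, and 18 lower and 1 higher (Cited4) in air, with medians of −0.88 and −0.91, larger than those of the 9. Csf2ra, a chain of the receptor for granulocyte-macrophage colony-stimulating factor, was lower, at −1.09 in physioxia and −1.33 in air. The Fc receptor genes Fcgr3 (−1.48 and −1.31), Fcgr2b (−0.91 and −0.91) and Fcer1g (−1.31 and −1.36) were lower, as were Hk3, a hexokinase of myeloid cells (−0.82 and −0.90), Emb (−0.85 and −0.75) and Dmkn (−2.59 and −2.63). Fcnb, the gene of a ficolin, stood at −3.80 and −3.84, while Cited4 stood at 4.06 in air.

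Specific and tertiary granule genes, which come later in the neutrophil line, were lower too. Of 13 in the table, 11 were lower in physioxia and 12 in air, and none was higher, with medians of −2.35 and −2.10. They included Il1r2 (−3.37 and −3.01), Ngp (−2.77 and −2.91), Camp (−3.17 and −2.82) and Lcn2 (−1.66 and −1.45). Camp was the only one of them called higher in physioxia than in air in WT cells. The level of these genes stayed low beside that of Elane: all 13 summed to 2810 to 4721 normalized counts per Tet2-deficient library and to 5355 to 20489 per WT library.

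**Figure D5:**
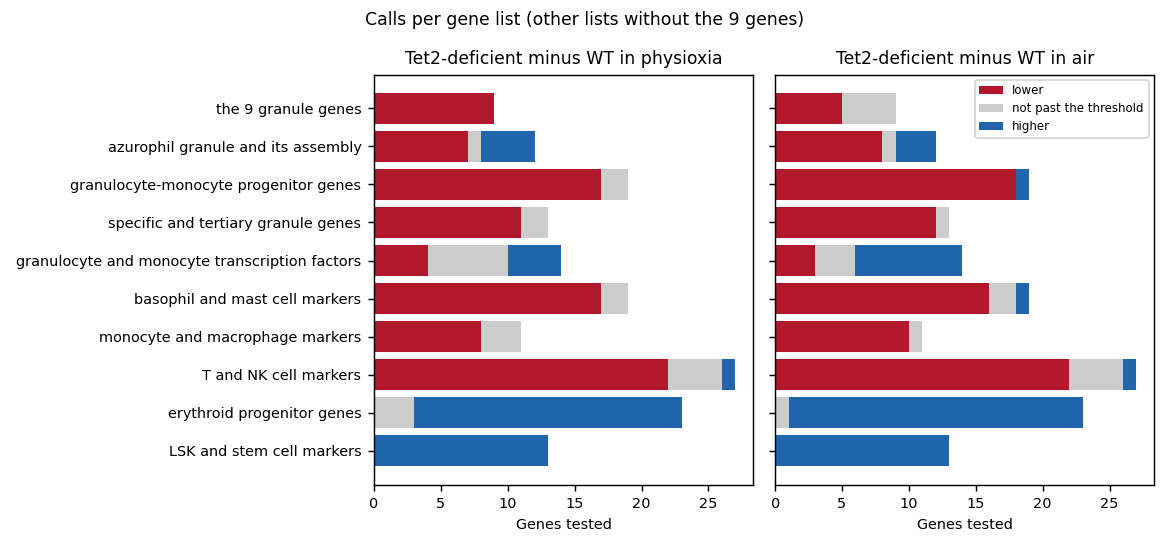
Number of genes called lower, not past the threshold and called higher in each list, Tet2-deficient minus WT, in physioxia on the left and air on the right. The 9 granule genes and the azurophil, progenitor, specific granule, monocyte, basophil and T and NK lists are mostly lower (Elane is higher, not past the threshold, under quantile normalization), the erythroid and stem cell lists are nearly all higher, and the transcription factors are mixed. The 4 B cell genes, of which 3 were lower in physioxia and 2 in air, are not drawn.

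Markers of other cells moved between the genotypes as well. The 27 T and NK cell markers in the table, read here because Nkg7 is known from those cells, were lower in 22 and higher in 1 (Cd4) in Tet2-deficient cells in both conditions, among them Ccl5 (−2.11 and −2.36), Cd3e (−2.18 and −2.60) and Lef1 (−2.73 and −2.70). Their sum was 1529 to 2201 normalized counts in Tet2-deficient and 3166 to 12598 in WT physioxia libraries, and 1549 to 1994 in Tet2-deficient and 3149 to 10723 in WT air libraries. Nkg7 alone had 17214 to 40618. In WT libraries that sum was highest in replicate 1 of each oxygen condition. Nkg7 had 25029 in WT physioxia replicate 1, close to 25099 in replicate 3, and 40618 in replicate 2. It had 29070 in WT air replicate 1, in a group that ranged between 27841 and 31687. The part of T and NK cells in the Nkg7 counts was not tested. None of these markers was at 0 in all 4 libraries of a group.

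Basophil, mast cell and eosinophil genes were lower in 17 of 19 in physioxia and in 16 of 19 in air, with 1 higher in air (Tpsb2). Their sum was 137712 to 212789 normalized counts in Tet2-deficient and 422016 to 708783 in WT physioxia libraries, and 109529 to 202138 in Tet2-deficient and 524119 to 566001 in WT air libraries. They included Prss34 (−3.23 and −3.14) and Mcpt8 (−1.95 and −1.54), proteases of basophils, Ms4a2 (−1.66 and −1.57) and Il5ra (−1.82 and −2.45). Of 11 monocyte and macrophage markers 8 were lower in physioxia and 10 in air, among them Acod1 (−3.20 and −4.18), Vcam1 (−1.57 and −2.07), Ly86 (−2.17 and −1.81) and Cd68 (−0.82 and −0.76). Of 4 B cell genes 3 were lower in physioxia and 2 in air, with Ighm at −1.35 in both.

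In the other direction, 20 of 23 erythroid genes were higher in Tet2-deficient cells in physioxia and 22 in air, with Klf1 at 2.15 and 2.47, Ermap at 2.48 and 2.49, Car1 at 1.75 and 2.25 and Car2 at 1.70 and 1.89. All 13 LSK and stem cell markers in the table were higher in both conditions, Pdzk1ip1 by 0.95 and 1.38, Gfi1b by 1.20 and 1.38, Mllt3 by 1.02 and 1.27 and Ndn by 1.83 and 2.25. Kit, the receptor gene that gives the fraction its K, averaged 6490 in Tet2-deficient and 3234 in WT physioxia libraries, and 6737 in Tet2-deficient and 4099 in WT air libraries. Ly6a, Cd34, Flt3 and Ptprc, the gene of CD45, were not analysed here. The part of the cell makeup in the differences of the 9 genes was not tested.

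Tet2, the targeted gene, was lower in the libraries labelled Tet2-deficient but not absent. It averaged 482 ± 35.9 normalized counts in Tet2-deficient and 731 ± 97.4 in WT physioxia libraries, and 554 ± 54.1 in Tet2-deficient and 855 ± 157 in WT air libraries, log2 differences of −0.59 (limma adjusted p = 0.00267) and −0.61 (adjusted p = 0.00223). Since the deleted part is not given and the reads cover the whole gene, and since differences of this size are common in the table, these values do not check the genotype labels. Relative to the median of all genes tested, the differences of the 9 genes lay between −0.46 and −0.95 in physioxia and between −0.51 and −0.90 in air, as deposited. Under quantile normalization the median of all genes in air was 0.12 in place of 0.24.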

How the data were processed

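The labels' protocols describe total RNA (integrity number above 7), a library kit for low input and paired-end reads. The deposited file holds a signal made by the authors, DESeq2-normalized counts per gene: reads divided by 1 size factor per library. The submitters' processing notes name FastQC, cutadapt, STAR, HTSeq, DESeq2 and GRCm38, without versions or roles. Divided by what 1 read is worth in its library, every value came out whole to within 0.01 (100%), so the reads could be recovered. How the 6288 genes of 55536 annotated (GENCODE M21) were chosen is not given in the sources used here, so shares of called genes describe this table only.

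Tests used the 6110 genes that reached a normalized count of 10 in 4 or more libraries. Values were taken as log2 with a pseudocount of 1, and limma 3.58.1 under R 4.3.3, with its variance trend, fitted a mean per group to the 16 libraries together, with two-sided tests and Benjamini-Hochberg adjustment over all genes tested. A difference on this scale understates the change of low genes. Alternatives were other pseudocounts and filters, quantile normalization, replicate blocks, only the 2 groups compared, each library left out, edgeR 4.0.16 and DESeq2 1.42.0 on the recovered reads, and adding the annotated genes outside the table as unchanged. The fit was tested on simulated data.

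Members and lists were chosen with earlier results of these data known. Besides the 9 genes, up to 8 genes of the azurophil, transcription factor and progenitor lists and up to 4 of each other list were named, by the smallest p in air, with the 5 genes nearest to Elane, Nkg7, Srgn and Cebpe, neighbours within 100 kb and Tet2. Cited4, Myb, Tpsb2, Kit and genes listed as not analysed were named after values were seen. Same-numbered WT libraries deviated together (correlations over genes of 0.33, 0.18, 0.16 and 0.33). Those of Tet2-deficient cells did so only for number 1 (0.32, −0.27, 0.04 and −0.01), and numbers did not pair the genotypes. As a set the numbers thus pair only the WT libraries across oxygen. Values printed are from the fit without the block, and the blocked value stands beside it where it changes a call. Tet2-deficient libraries deviated together under other numbers, with 0.50 for air replicate 3 and physioxia replicate 2. Air replicate 2 and physioxia replicate 4 had 0.17, and air replicate 4 and physioxia replicate 3 had 0.15. No fit used such pairs.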

Additional observations from a re-analysis of the deposited data

Results flagged for a closer look

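In 2 of 36 groups of 4 libraries tested for the 9 genes, 1 library lay far from the others, its gap to the nearest, divided by the range of the group, being over Dixon's 95% critical value. Chance flags about 1 in 20 groups. Both concern Ms4a3: in Tet2-deficient physioxia libraries replicate 3 was high, at 26495 normalized counts (0.880 of the range), and in WT physioxia libraries replicate 2 was high, at 56209 (0.888 of the range).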

How the results depend on the processing

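Of the 9 genes lower in Tet2-deficient cells in physioxia, 4 stayed called under quantile normalization (Cebpe, Plac8, Prss57 and Srgn). When the annotated genes outside the table were added as unchanged, where more genes enter the adjustment, 3 stayed (Plac8, Prss57 and Srgn). Calls fell over all genes tested too, to 63.0% and 40.6% in either direction, beside 69.4% in the main fit. With equal sums of the other genes in every library, a scaling chosen after seeing the data, 5 stayed, beside 62.5% of all genes. With 1 library left out the count was 6 to 9, beside 62.9% to 70.6% of all genes. Of the 5 genes lower in air, 2 stayed under quantile normalization (Ctsc and Prss57), beside 70.2% of all genes called in either direction. Without Tet2-deficient air libraries 3 and 4 there were 2, beside 45.2% of all genes. With the annotated genes added there was 1 (Srgn), beside 39.9%. The main fit in air called 79.5% of all genes. With only the 2 groups compared, 8 were called in physioxia (Nkg7 was lost), beside 66.0% of all genes. In air 6 were called (Ms4a3 was added), beside 84.4%. Without WT air libraries 1 and 2, an alternative chosen after seeing the data, Elane and Cebpe were called in air, beside 54.6% of all genes. Without WT physioxia replicate 2 there were 8 in air, beside 86.5% of all genes. With any 1 library left out there were 4 to 8, beside 66.3% to 86.5%. Elane reversed under quantile normalization, to 0.14 in physioxia and 0.10 in air. With DESeq2 7 genes were called in air (Prtn3 and Plac8 were added) and 9 in physioxia, beside 81.7% and 71.2% of all genes. With edgeR 5 and 9 were called, beside 81.0% and 70.1%. With the number as a replicate block the counts were 9 and 5, and with the block within each genotype 1 gene (Cebpe) was called between physioxia and air in WT cells. That block changed no other call of the 9 genes. In Tet2-deficient cells it pairs libraries by numbers that mostly did not deviate together, so it does not serve as a paired test there. Pseudocounts of 0.5 and 5, no filter and a minimum of 50 left the counts of called genes as they were. The lowest count of any of the 9 genes in a library was 1885, so the spread between libraries and not the depth limits these tests.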
